A study of Arabidopsis thaliana with 40 samples.

Results

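The CIN-type TCP genes are the 8 *Arabidopsis* relatives of *CINCINNATA*, the snapdragon gene that sets the flatness of the leaf. Their rows were taken by gene ID from 12 RNA-seq count tables: *TCP2* (AT4G18390), *TCP3* (AT1G53230), *TCP4* (AT3G15030), *TCP10* (AT2G31070) and *TCP24* (AT1G30210), and *TCP5* (AT5G60970), *TCP13* (AT3G02150) and *TCP17* (AT5G08070). They are 8 of the 24 TCP genes of the plant and of the 33323 nuclear gene IDs in the tables. The libraries came from whole seedlings of the Col-0 accession grown for 15 days on agar in long days, with 3 biological replicates per genotype. The genotypes were the double mutant *ubp12/13*, which carries the T-DNA insertion alleles *ubp12-1* and *ubp13-3*, the single mutants *ubp12* (*ubp12-1*) and *ubp13* (*ubp13-3*), and wild type (wt). *UBP12* and *UBP13* encode ubiquitin-specific proteases that remove the ubiquitin that Polycomb repressive complexes put on histone H2A (H2Aub1). The *ubp13-3* allele is weak, and the double mutant is sterile and stunted, so that it was obtained from plants heterozygous for *ubp13-3*. A second data set holds peaks of increased H2Aub1 in *ubp12/13* rosette leaves.

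TCP proteins are plant transcription factors with a basic helix-loop-helix type DNA-binding domain. CIN-type TCPs act in young leaves, where they end cell division and promote differentiation, and plants in which many of them are silenced form large, crinkled leaves. *TCP2*, *TCP3*, *TCP4*, *TCP10* and *TCP24* are known targets of the microRNA miR319, while *TCP5*, *TCP13* and *TCP17* form a clade that escapes it. In leaf growth the CIN-type TCPs stand opposite to the GRF transcription factors and their GIF co-activators, which promote cell division.

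The miR319 sites are shown first because they divide the genes into the groups by which the counts are described. The sequences were read from the RefSeq annotation of TAIR10.1, whose nuclear chromosomes have the TAIR10 coordinates of the files. The mature forms of miR319a (chromosome 4, 12353109 to 12353129, plus strand) and miR319b (chromosome 5, 16660469 to 16660489, minus strand) are identical, and miR319c (chromosome 2, 17029870 to 17029890, plus strand) shares their seed, bases 2 to 8, in capitals.
miR319a: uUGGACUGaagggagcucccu
miR319b: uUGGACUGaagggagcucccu
miR319c: uUGGACUGaagggagcuccuu

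In the target sites, capitals mark the bases that can pair with miR319a, G:U pairs included, and every site lies wholly in the coding sequence. The sites lie at chromosome 4, 10163402 to 10163422 (minus strand) in *TCP2*, at chromosome 1, 19850522 to 19850542 (minus strand) in *TCP3*, at chromosome 3, 5063300 to 5063320 (plus strand) in *TCP4*, at chromosome 2, 13221210 to 13221230 (minus strand) in *TCP10* and at chromosome 1, 10628989 to 10629009 (minus strand) in *TCP24*.
TCP2: caGGGGgaCCCUUCAGUCCAA
TCP3: GaGGGGUcCCCUUCAGUCCAu
TCP4: GaGGGGUcCCCUUCAGUCCAG
TCP10: AaGGGGUaCCCUUCAGUCCAG
TCP24: uaGGGGgaCCCUUCAGUCCAA

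The 5 sites share a core of 12 bases, CCCUUCAGUCCA, which stood in the transcripts of 7 of the 27440 protein-coding genes scanned (0.0255%). With a cost of 1 for an unpaired base and 0.5 for a G:U pair, the sites scored 3.5 in *TCP10*, 4 in *TCP4* and 4.5 in *TCP2*, *TCP3* and *TCP24*, and 0.248% of all protein-coding genes had a window at or under 4.5. The best windows of *TCP5*, *TCP13* and *TCP17* scored 8.5, 7.5 and 6, and none of them touched the coding sequence.

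A second sequence feature, looked for after the counts were seen, split the genes in the same way. The letters GGACCA, a core that class II TCP proteins are known to bind, were searched on both strands in the 1000 bases before the annotated start of each gene. They stood before *TCP5*, *TCP13* and *TCP17* and before none of the 5 genes with a miR319 site. This made 37.5% of the 8 genes, against 21.9% of 27444 protein-coding genes, and the difference was not tested. The matches are shown in capitals with 6 flanking bases and read along the strand of the gene, where TGGTCC is the same core on the other strand. They lie at chromosome 5, 24538100 to 24538117 and 24538037 to 24538054 (*TCP5*, minus strand), at chromosome 3, 390048 to 390065 (*TCP13*, plus strand), and at chromosome 5, 2583623 to 2583640 and 2583706 to 2583723 (*TCP17*, plus strand).
TCP5, 867 bases before the start: agaagtGGACCAcaaatc
TCP5, 804 bases before the start: actcgtTGGTCCattctc
TCP13, 666 bases before the start: tcacatGGACCAtatact
TCP17, 729 bases before the start: atatagTGGTCCaccatg
TCP17, 646 bases before the start: ttaattTGGTCCatcctc

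The longer class II consensus GTGGNCCC stood before 0 of the 8 genes and before 1.99% of all protein-coding genes. These matches describe letters only, and no binding of a TCP protein was measured.

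Counts on nuclear genes numbered between 6545534 and 15225396 per library, and between 1506 and 3676 of them fell on the CIN-type TCP genes. Replicates differed by more than sampling noise in every pair. Reads of organelle genes made up 6.15% of the counts of wt replicate 3 and 0.268% to 1.52% of those of the other 11 libraries. *UBP12* had 33.9, 27.2 and 36.3 normalized CPM (counts scaled by library size and TMM factors) in *ubp12/13* and 26.1, 23.3 and 27.4 CPM in *ubp12*, against 94.6, 92.1 and 88.5 CPM in *ubp13* and 99.8, 101 and 95.8 CPM in wt. *UBP13* had 77.9, 78.4 and 80.9 CPM in *ubp12/13*, 59.0, 64.1 and 62.1 CPM in *ubp12* and 149, 171 and 153 CPM in *ubp13*, against 62.6, 63.3 and 63.6 CPM in wt. A count per gene does not separate the transcript before the insertion from that behind it, so *UBP13* does not check the *ubp13-3* label. Although the tissue is labelled as whole seedlings, 7 of the 8 root markers were nearly absent. They summed to 2.48 to 3.40 CPM in *ubp12/13*, 0.668 to 1.36 CPM in *ubp12*, 0.916 to 2.95 CPM in *ubp13* and 1.42 to 2.49 CPM in wt. The other root marker, *PYK10*, went the other way, with means of 137 CPM in *ubp12/13*, 129 CPM in *ubp12*, 160 CPM in *ubp13* and 143 CPM in wt. The 6 leaf markers summed to 39750 to 44700 CPM in *ubp12/13*, 53550 to 63430 CPM in *ubp12*, 59860 to 64230 CPM in *ubp13* and 51520 to 60480 CPM in wt. Fewer leaf cells and less leaf RNA per cell cannot be told apart in whole-seedling libraries.

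Levels can be compared between genes only per length of transcript. In wt, *TCP10* and *TCP2* had the highest levels, 33.4 ± 0.929 and 30.4 ± 2.56 CPM per kb of exons (SD, n = 3). *TCP4* and *TCP24* followed with 19.8 ± 2.22 and 17.6 ± 0.618 CPM per kb, and within each of these pairs the libraries overlapped. *TCP13* (10.6 ± 1.06 CPM per kb), *TCP5* (8.01 ± 0.724), *TCP17* (3.17 ± 0.308) and *TCP3* (0.485 ± 0.0193) came next, each below the one before it in every library. In *ubp12/13* the order was *TCP2* (26.3 ± 2.69 CPM per kb), *TCP10* (22.5 ± 1.08), *TCP24* (15.0 ± 0.653), *TCP4* (14.6 ± 0.344), *TCP5* (12.5 ± 0.757), *TCP13* (11.8 ± 0.367), *TCP17* (4.20 ± 0.410) and *TCP3* (0.702 ± 0.246). There *TCP24* and *TCP4* overlapped, and so did *TCP5* and *TCP13*. In *ubp12* and *ubp13* the genes stood in 1 order, *TCP2*, *TCP10*, *TCP4*, *TCP24*, *TCP13*, *TCP5*, *TCP17* and *TCP3*, with overlaps in *ubp13* between *TCP2* and *TCP10* and between *TCP13* and *TCP5*.

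**Figure D1:**
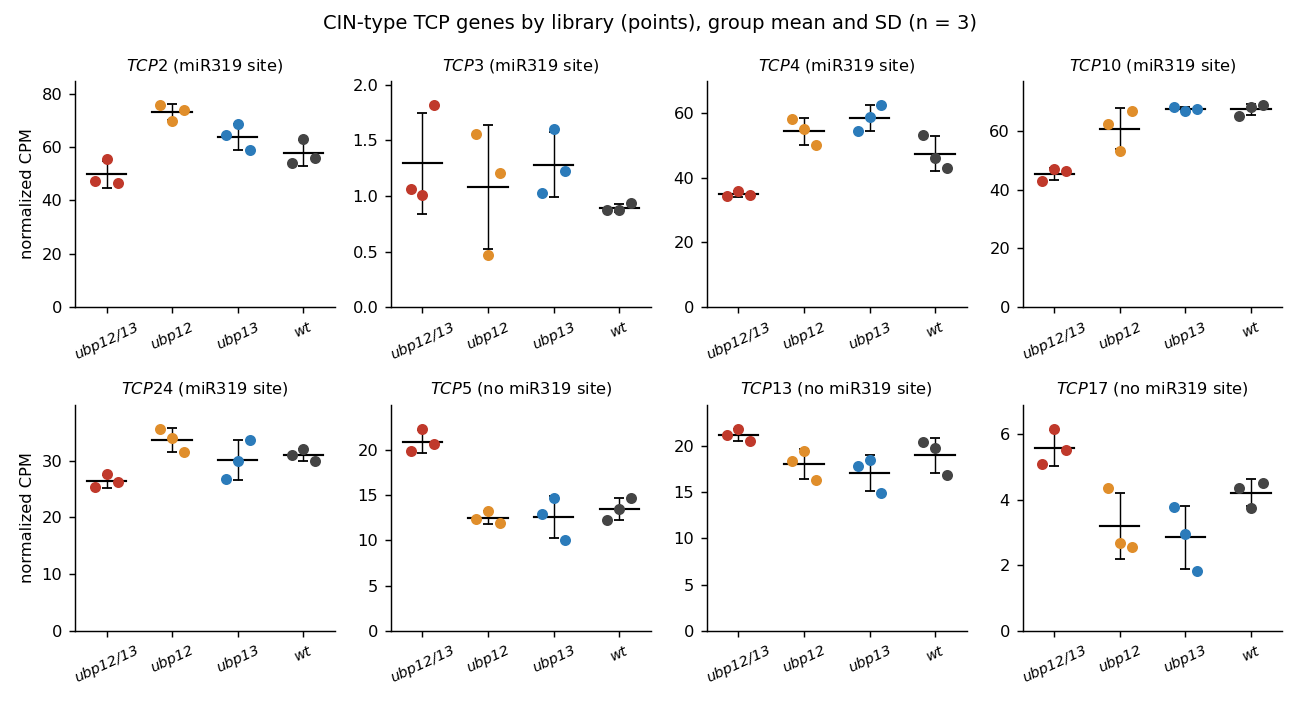
Normalized CPM (y axis) of each CIN-type TCP gene in *ubp12/13*, *ubp12*, *ubp13* and wt (x axis), with a point per library and the group mean and SD as lines (n = 3). The *ubp12/13* points of *TCP10* lie between 42.9 and 47.0 CPM, below all wt points, and those of *TCP5* lie between 19.8 and 22.3 CPM, above all wt points.

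The comparison of *ubp12/13* with wt asked which genes depend on the pair of proteases. *TCP4* and *TCP10*, with miR319 sites, were lower in *ubp12/13*, and *TCP5*, without one, was higher (edgeR quasi-likelihood test, adjusted p under 0.05). Hence 1 of the 8 genes was higher, against 16% of the 17916 genes tested, and 2 were lower, against 15.1% of them, so these shares were near those of all genes. With an absolute log2 fold change (log2FC) of at least 1 as a further condition, edgeR and DESeq2 called 0 of the 8 genes, against 9.96% of all genes by edgeR, and 5 of the 8 had an unadjusted edgeR p under 0.05, against 42.5% of all genes. The median log2FC was -0.04 over the 8 genes, -0.24 over the 5 with a site and 0.41 over the 3 without, against -0.00182 over all genes tested.

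*TCP10*, one of the genes silenced by an excess of miR319, had 42.9, 47.0 and 46.3 CPM in *ubp12/13*, against 65.3, 68.2 and 68.9 CPM in wt. All *ubp12/13* libraries were below all wt libraries, and the log2FC was -0.58 ± 0.08 (SE, n = 3 each, edgeR adjusted p = 0.00113). *TCP4*, the member best studied in miR319-resistant form, had 34.3, 35.8 and 34.7 CPM in *ubp12/13*, against 53.2, 46.1 and 42.8 CPM in wt. Again the groups did not overlap, with a log2FC of -0.45 ± 0.10 (edgeR adjusted p = 0.00819). *TCP5*, a regulator of petal and leaf growth, had 19.8, 22.3 and 20.6 CPM in *ubp12/13*, against 12.2, 13.5 and 14.6 CPM in wt. Every *ubp12/13* library was above every wt library, with a log2FC of 0.64 ± 0.11 (edgeR adjusted p = 0.00291). These 3 calls stood when any 1 of the 6 libraries was left out.

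The other 5 genes did not pass. *TCP24* had 25.3, 27.6 and 26.3 CPM in *ubp12/13*, against 31.0, 32.1 and 29.9 CPM in wt, and although the groups did not overlap, its log2FC of -0.24 ± 0.08 had an edgeR adjusted p of 0.0564. *TCP2* had 47.4, 55.7 and 46.5 CPM in *ubp12/13*, against 53.9, 63.2 and 56.1 CPM in wt, with overlapping groups (edgeR adjusted p = 0.148). *TCP17* had 5.07, 6.15 and 5.52 CPM in *ubp12/13*, against 4.36, 3.75 and 4.52 CPM in wt. Its groups did not overlap, and its log2FC of 0.41 ± 0.16 had an edgeR adjusted p of 0.0904. *TCP13* had 21.2, 21.8 and 20.5 CPM in *ubp12/13*, against 20.4, 19.7 and 16.8 CPM in wt, each *ubp12/13* library being above each wt library by little (log2FC 0.15 ± 0.10, edgeR adjusted p = 0.302).

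*TCP3* was near the limit of detection and met the filter (CPM over 1 in at least 2 libraries of a pair) only through the mutant libraries. It had 14, 17 and 24 counts in *ubp12/13*, 14, 4 and 8 in *ubp12* and 12, 19 and 12 in *ubp13*, against 8, 7 and 6 counts in wt. No difference of *TCP3* was detectable at this depth in any comparison. A long noncoding RNA gene overlaps *TCP3* on the other strand, and the library kit does not mark strand, so reads of either cannot be told apart.

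Leaf markers were read in the same comparison. Of the 6, which included *RCA* (Rubisco activase) and *FAMA* (a guard cell regulator), 5 were lower in *ubp12/13* than in wt, against 15.1% of all genes tested, and none was higher, against 16%. DESeq2 called 4 lower. The median log2FC of the list was -0.36. *RCA* fell to 8471, 9055 and 8560 CPM in *ubp12/13*, against 13251, 10770 and 11492 CPM in wt (log2FC -0.45 ± 0.09, edgeR adjusted p = 0.00694). *TCP4* and *TCP10* moved in the same direction as these markers and *TCP5* in the other, and the part of the leaf markers in these differences was not tested. Scaling to library totals instead of TMM factors shifted the median log2FC of all genes to 0.15, with 4571 genes higher and 1735 lower against 2860 and 2712. On that scale *TCP4* and *TCP10* were still lower and *TCP5* still higher, and *TCP17* passed as higher (log2FC 0.56, adjusted p = 0.0292).

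None of the 8 genes passed the test in either single mutant against wt. In *ubp12*, edgeR called 0 genes higher, against 1.08% of the 17712 genes tested, and 0 lower, against 0.706%, and 1 gene, *TCP2*, had an unadjusted p under 0.05, against 15.2% of all genes. In *ubp13* it called 0 genes higher, against 0.0227% of 17615 genes, and 0 lower, against 0.00568%, and 1 gene, *TCP4*, had an unadjusted p under 0.05, against 6.26% of all genes. DESeq2 called 0 genes in each as well, and a log2FC of 1 with an adjusted p under 0.05, which no member reached, was met by 0.683% of all genes in *ubp12* and by 0.0284% in *ubp13*. *TCP2* had 75.7, 69.9 and 73.9 CPM in *ubp12*, against 53.9, 63.2 and 56.1 CPM in wt. The groups did not overlap, but the log2FC of 0.35 ± 0.10 had an edgeR adjusted p of 0.12. *TCP4* had 54.3, 58.8 and 62.3 CPM in *ubp13*, against 53.2, 46.1 and 42.8 CPM in wt, and the log2FC of 0.30 ± 0.11 had an edgeR adjusted p of 0.784.

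The double mutant was then compared with each single mutant, to see what the second mutation added, which against *ubp12* was the weak *ubp13-3* allele. These comparisons share the *ubp12/13* libraries with each other and with the comparison to wt. Against *ubp12*, 4 of the 8 genes, all with a miR319 site, were lower in *ubp12/13* (*TCP2*, *TCP4*, *TCP10* and *TCP24*), against 13.5% of the 17890 genes tested. The clade without a site gave the 2 of the 8 that were higher (*TCP5* and *TCP17*), against 13% of all genes. Against *ubp13*, *TCP2*, *TCP4* and *TCP10* were lower, 3 of 8 genes against 16.4% of the 17821 genes tested, and *TCP5*, *TCP13* and *TCP17* were higher, 3 of 8 genes against 16.6%. No gene reached a log2FC of 1 in either, as 7.12% and 9.9% of all genes did. The median log2FC was -0.44 against *ubp12* and -0.37 against *ubp13* over the genes with a site, and 0.72 in both over those without, while the medians of all genes were -0.00085 and 0.00099. On library totals these medians of all genes moved to 0.163 and 0.21, and the calls over all genes to 4471 higher and 1407 lower against *ubp12* (2332 and 2418 with TMM) and to 5957 higher and 1640 lower against *ubp13* (2967 and 2920 with TMM). Of the 6 leaf markers, 2 were lower in *ubp12/13* than in *ubp12* and 3 lower than in *ubp13*, and none was higher, and their part in these differences was not tested.

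*TCP4* showed the largest fall of the 8 genes in both comparisons. With 34.3, 35.8 and 34.7 CPM in *ubp12/13*, against 58.0, 54.9 and 49.9 CPM in *ubp12*, its log2FC was -0.65 ± 0.08 (edgeR adjusted p = 8.3e-04). Against the 54.3, 58.8 and 62.3 CPM in *ubp13* it was -0.75 ± 0.08 (edgeR adjusted p = 3.2e-04). Every *ubp12/13* library of *TCP4* was below every library of the other genotypes.

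*TCP2*, which did not pass against wt, fell to 47.4, 55.7 and 46.5 CPM in *ubp12/13*, against 75.7, 69.9 and 73.9 CPM in *ubp12* (log2FC -0.57 ± 0.09, edgeR adjusted p = 0.00254). Against 64.5, 68.5 and 58.8 CPM in *ubp13* the log2FC of *TCP2* was -0.37 ± 0.10 (edgeR adjusted p = 0.0194), and this call was lost when *ubp13* replicate 1 or 2, or *ubp12/13* replicate 1 or 3, was left out (adjusted p 0.0559 to 0.087) and on library totals (adjusted p 0.26). Its groups did not overlap in either comparison.

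*TCP10* fell by 0.44 ± 0.10 on the log2 scale against *ubp12*, which had 62.5, 53.3 and 66.9 CPM (edgeR adjusted p = 0.0125). It fell by 0.58 ± 0.07 against *ubp13*, which had 68.4, 66.9 and 67.6 CPM (edgeR adjusted p = 6.7e-04). *TCP24* fell by 0.37 ± 0.08 against *ubp12*, which had 35.6, 34.0 and 31.5 CPM (edgeR adjusted p = 0.0116), and had a log2FC of -0.20 ± 0.10 against *ubp13*, which had 26.7, 30.0 and 33.7 CPM and overlapped with *ubp12/13* (edgeR adjusted p = 0.173). Against *ubp12*, the calls of *TCP10* and *TCP24* were lost without *ubp12/13* replicate 1 (adjusted p 0.0597 and 0.0583) and on library totals (adjusted p 0.0596 and 0.114).

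*TCP5* rose against both single mutants. It had 19.8, 22.3 and 20.6 CPM in *ubp12/13*, against 12.4, 13.3 and 11.9 CPM in *ubp12* (log2FC 0.72 ± 0.10, edgeR adjusted p = 0.00119) and 12.9, 14.6 and 10.1 CPM in *ubp13* (log2FC 0.72 ± 0.13, edgeR adjusted p = 0.00366). The lowest *TCP5* library of *ubp12/13* was above the highest of all other genotypes.

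*TCP17* had 5.07, 6.15 and 5.52 CPM in *ubp12/13*, against 4.34, 2.68 and 2.56 CPM in *ubp12* (log2FC 0.77 ± 0.22, edgeR adjusted p = 0.0315) and 3.76, 2.95 and 1.83 CPM in *ubp13* (log2FC 0.95 ± 0.23, edgeR adjusted p = 0.0135). The groups did not overlap, but the call against *ubp12* was lost when *ubp12* replicate 2 or 3, or any *ubp12/13* library, was left out (adjusted p 0.0574 to 0.108). *TCP13* had 21.2, 21.8 and 20.5 CPM in *ubp12/13*, against 17.8, 18.5 and 14.9 CPM in *ubp13* (log2FC 0.30 ± 0.10, edgeR adjusted p = 0.0469), and this call was lost with DESeq2 (adjusted p = 0.135) without a filter on low counts (0.0635) and without any 1 of the 6 libraries (adjusted p 0.053 to 0.139). Against the 18.4, 19.4 and 16.3 CPM of *ubp12*, *TCP13* did not pass (edgeR adjusted p = 0.131, and 0.0233 on library totals).

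**Figure D2:**
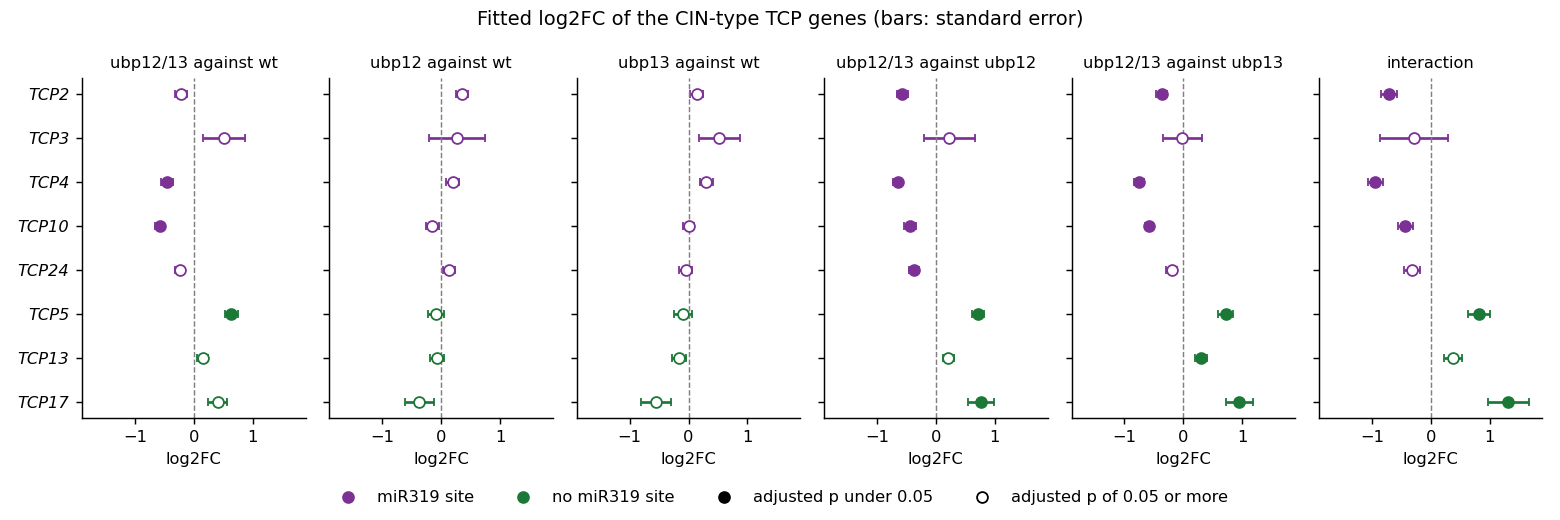
Fitted log2FC (x axis) with its standard error for each CIN-type TCP gene (y axis) in the pairwise comparisons and in the interaction of both mutations, filled where the adjusted p was under 0.05. In the comparisons of *ubp12/13* with the single mutants, the filled points of genes with a miR319 site lie between -0.75 and -0.37, and those of genes without one between 0.30 and 0.95.

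Whether the effect of both mutations equalled the sum of the single effects was tested as an interaction over the 12 libraries. It passed for 5 of the 8 genes. It was below 0 for *TCP4* (log2FC -0.94 ± 0.13, edgeR adjusted p = 5.1e-04), *TCP2* (-0.71 ± 0.14, edgeR adjusted p = 0.00419) and *TCP10* (-0.43 ± 0.13, edgeR adjusted p = 0.0346), 3 of 8 genes against 7.57% of the 18212 genes tested. It was above 0 for *TCP17* (1.32 ± 0.35, edgeR adjusted p = 0.0234) and *TCP5* (0.82 ± 0.18, edgeR adjusted p = 0.00973), 2 of 8 genes against 6.83%. *TCP17* was the 1 gene with an absolute value of at least 1, which 6.37% of all genes reached. On library totals the median interaction of all genes moved to 0.216, with 3005 above and 820 below 0 against 1243 and 1378, *TCP10* lost its call (adjusted p = 0.232) and *TCP13* passed (adjusted p = 0.018).

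The interaction of *TCP10* was also lost when wt replicate 1 or 2, *ubp12* replicate 1 or 3, any *ubp13* library or *ubp12/13* replicate 1 or 3 was left out (adjusted p 0.0523 to 0.0885), and without a filter on low counts (0.0536). For *TCP17* the call needed wt replicate 3 and *ubp12* replicates 2 and 3 (leaving out any 1 of them gave an adjusted p of 0.0505 to 0.06). The interactions of *TCP2*, *TCP4* and *TCP5* stood when any 1 library was left out.

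The balance between the clades can be read without any scaling between libraries, as the share of all CIN-type TCP counts that fell on *TCP5*, *TCP13* and *TCP17*. It was 23.4%, 23.1% and 23.1% in *ubp12/13*, 13.1%, 14.3% and 12.1% in *ubp12*, 13.8%, 13.8% and 10.7% in *ubp13*, and 15.3%, 14.9% and 15.3% in wt. The 95% Wilson interval of the lowest *ubp12/13* library spanned 21.5% to 24.7%, above that of the highest wt library, 13.6% to 17.2%. These intervals cover counting error only, and the share is a description of genes whose differences were tested above. The summed level of the 5 genes with a site was 151, 167 and 156 CPM in *ubp12/13*, against 204, 210 and 199 CPM in wt, and that of the 3 without was 46.1, 50.3 and 46.6 CPM in *ubp12/13*, against 37.0, 37.0 and 36.0 CPM in wt.

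**Figure D3:**
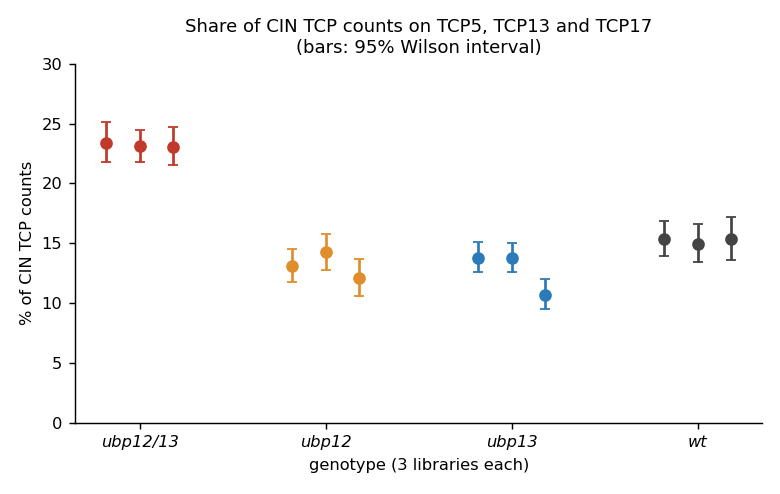
Share of CIN-type TCP counts on *TCP5*, *TCP13* and *TCP17* (y axis, percent) in each library of *ubp12/13*, *ubp12*, *ubp13* and wt (x axis), with 95% Wilson intervals. The *ubp12/13* libraries lie between 23.1% and 23.4%, and the other 9 libraries between 10.7% and 15.3%.

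The genes around the CIN-type TCPs were read from lists. The miR319 precursors *MIR319A*, *MIR319B* and *MIR319C* had at most 1 count in a library, so that nothing can be said of miR319 itself, whose mature form such libraries do not capture. The 3 branching genes of the CYC/TB1 clade had at most 4 counts in a library, and none was tested. Of the 13 class I TCP genes, 10 passed the filter, and in *ubp12/13* against wt 1 was higher and 1 lower, against the 16% and 15.1% of all genes. *TCP9* had 2.95, 3.43 and 4.46 CPM in *ubp12/13*, against 1.42, 0.999 and 0.779 CPM in wt (log2FC 1.70 ± 0.29, edgeR adjusted p = 0.00294), and a long noncoding RNA gene overlaps it on the other strand. *TCP7*, named after its values were seen, fell to 15.1, 17.5 and 17.9 CPM in *ubp12/13*, against 29.1, 29.7 and 31.0 CPM in wt (log2FC -0.83 ± 0.10, edgeR adjusted p = 4.8e-04). The groups of each gene did not overlap.

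Of 10 genes for co-repressors and partners of TCP proteins, among them *TPL* and its TOPLESS-related kin, 7 passed the filter and 0 were called by edgeR or DESeq2 in *ubp12/13* against wt, with 1 at an unadjusted edgeR p under 0.05, against 42.5% of all genes. That gene was *TIE4*, a relative of the TCP repressor *TIE1*, with 1.44, 3.08 and 1.59 CPM in *ubp12/13*, against 2.84, 4.24 and 3.43 CPM in wt (edgeR adjusted p = 0.115, and 0.0135 without *ubp12/13* replicate 2).

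Of 13 reported targets of CIN-type TCPs, 8 passed the filter, of which *ARR16* did so only through wt and *YUC5* only through *ubp12/13*. In *ubp12/13* against wt 2 were higher, against 16% of all genes, and 3 lower, against 15.1%, and the median log2FC was -0.24. *LOX2*, a lipoxygenase of jasmonate synthesis that TCP4 activates, had 1785, 1616 and 1850 CPM in *ubp12/13*, against 244, 111 and 111 CPM in wt. Each *ubp12/13* library was far above each wt library, of which replicate 1 was the highest, and the log2FC of 3.49 ± 0.30 (edgeR adjusted p = 1.3e-04) went the opposite way to *TCP4*. *AS1*, a repressor of meristem genes in leaves that was named after its values were seen, had 75.1, 82.0 and 65.2 CPM in *ubp12/13*, against 41.8, 39.2 and 36.8 CPM in wt (log2FC 0.91 ± 0.11, edgeR adjusted p = 4.7e-04). *SAUR65*, an auxin-responsive gene, had 1.97, 1.89 and 3.18 CPM in *ubp12/13*, against 6.87, 6.24 and 7.79 CPM in wt (log2FC -1.58 ± 0.23, edgeR adjusted p = 0.00134). The other lower genes, named after their values were seen, were *KRP1*, a cell cycle inhibitor (log2FC -0.74 ± 0.13, edgeR adjusted p = 0.00302), and the auxin repressor *SHY2* (-0.64 ± 0.18, edgeR adjusted p = 0.0265). The call of *SHY2* was lost without wt replicate 2 or 3 or *ubp12/13* replicate 1 or 2 (adjusted p 0.0544 to 0.0969) and on library totals (0.0652). Another annotated gene overlaps *AS1*, *SHY2*, *GIF3*, *GRF3*, *RCA*, *CASP1* and *UBP13*, so their counts are less certain.

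The GGACCA core stood in the 1000 bases before 7 of the 13 targets, against 21.9% of all protein-coding genes. The 13 include the microRNA genes *MIR164A* and *MIR396B*, of which *MIR396B* had a match, so the sets are not alike. The list was gathered from reported targets, and the difference was not tested. The 3 matches before *LOX2* are shown because TCP4 is known to activate this gene. They lie on chromosome 3, plus strand, at 16524252 to 16524269, 16524994 to 16525011 and 16525126 to 16525143, with the core or its other strand in capitals.
LOX2, 987 bases before the start: gatcctGGACCActgcaa
LOX2, 245 bases before the start: taagcaGGACCAaaacct
LOX2, 113 bases before the start: atacagTGGTCCtcctat

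Of the 12 GRF and GIF genes, 11 passed the filter, 3 were higher in *ubp12/13* than in wt, against 16% of all genes, and 0 lower, against 15.1%, and the median log2FC was 0.37. *GIF1*, the co-activator also called *ANGUSTIFOLIA3*, had 14.2, 19.2 and 18.6 CPM in *ubp12/13*, against 10.8, 8.99 and 9.04 CPM in wt (log2FC 0.84 ± 0.15, edgeR adjusted p = 0.00366). Its groups did not overlap. The others, named after their values were seen, were *GIF3* (log2FC 0.70 ± 0.18, edgeR adjusted p = 0.0175), whose call was lost without wt replicate 1 or *ubp12/13* replicate 1 or 3 (adjusted p 0.0545 to 0.057) and with DESeq2 (0.0635), and *GRF3* (0.68 ± 0.18, edgeR adjusted p = 0.0195), whose call was lost without *ubp12/13* replicate 3 (adjusted p = 0.0547).

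All 4 *NGATHA* genes, leaf growth regulators that CIN-type TCPs activate, passed the filter, *NGA4* only through *ubp12/13*, and 1 was lower in *ubp12/13* than in wt, against 15.1% of all genes. *NGA2* had 6.20, 7.87 and 4.54 CPM in *ubp12/13*, against 10.4, 9.11 and 8.88 CPM in wt (log2FC -0.61 ± 0.20, edgeR adjusted p = 0.0487), and this call was lost without *ubp12/13* replicate 1 or 3 or any 1 of the wt libraries (adjusted p 0.081 to 0.134), with DESeq2 (0.0559), with organelle genes kept (0.0516) and on library totals (0.124). Of the 6 shoot meristem markers 2 passed the filter, *KNAT1* (log2FC 1.59 ± 0.72 in *ubp12/13* against wt) and *KNAT6* (0.66 ± 0.32). Both edgeR and DESeq2 called 0 of them, against 16% of all genes higher and 15.1% lower by edgeR. At an unadjusted edgeR p under 0.05 there were 0, against 42.5% of all genes. With 2 genes tested, these counts say little about meristem genes. *KNAT1*, which passed only through *ubp12/13*, had 1.36, 1.42 and 0.303 CPM in *ubp12/13*, against 0.218, 0.624 and 0.156 CPM in wt (edgeR adjusted p = 0.128, and 0.0224 without *ubp12/13* replicate 3). Of the 8 root markers 3 passed the filter, *CASP1* only through *ubp12/13* and *CASP2* only through wt, where each was the higher. The Casparian strip gene *CASP1* had 22, 25 and 21 counts in *ubp12/13*, against 1, 0 and 1 in wt, a normalized ratio of 18.5 with an exact 95% counting interval of 4.93 to 156. *CASP2* had 8, 9 and 9 counts in *ubp12/13*, against 10, 12 and 11 in wt (log2FC -1.22 ± 0.33, edgeR adjusted p = 0.0227), a call lost without *ubp12/13* replicate 1 or 2 or wt replicate 2 or 3 (adjusted p 0.0631 to 0.0671), with DESeq2 (0.0895) and in a common fit of all 12 libraries (0.0817).

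**Figure D4:**
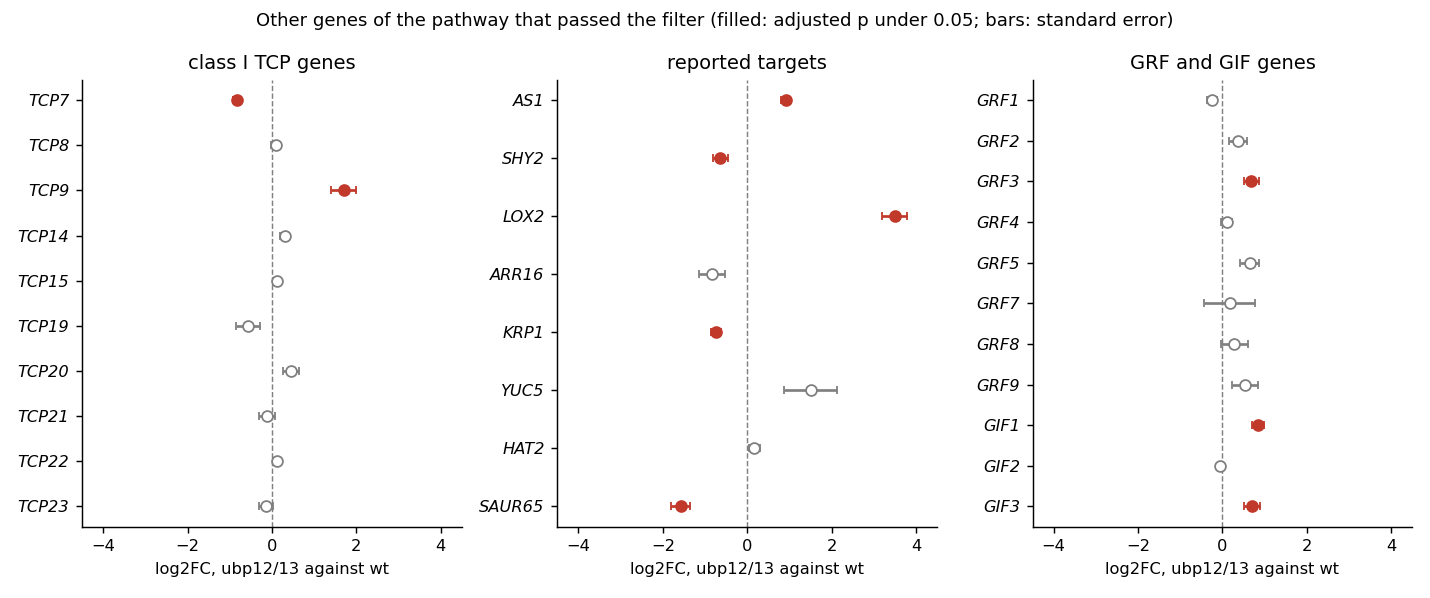
Fitted log2FC in *ubp12/13* against wt (x axis) with its standard error for class I TCP genes, reported targets of CIN-type TCPs and GRF and GIF genes that passed the filter (y axis), filled where the adjusted p was under 0.05. *LOX2* lies at 3.49 and *SAUR65* at -1.58, and the filled GRF and GIF genes lie between 0.68 and 0.84.

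Genes with a profile like that of *TCP10*, the CIN-type TCP with the lowest adjusted p against wt, were ranked by Pearson's r of log2 CPM over the 12 libraries, among 13694 genes with a mean of at least 5 CPM. The most alike were AT2G32560 (r = 0.977), AT3G14800 (0.971), the aquaporin gene *PIP1A* (0.97), *ACLA-2*, a subunit of ATP citrate lyase (0.969), and *HHP1* (0.967). *PIP1A* averaged 156.9 CPM in *ubp12/13*, 231.8 CPM in *ubp12* and 276.4 CPM in *ubp13*, against 253 CPM in wt. Among the CIN-type TCPs at that level, r with *TCP10* was 0.759 for *TCP4*, 0.589 for *TCP2*, 0.55 for *TCP24*, -0.704 for *TCP13* and -0.829 for *TCP5*. In the same order, their ranks among the 13694 genes were 1515, 2835, 3120, 11698 and 12907, so many other genes were more alike to *TCP10*. The libraries fall into 4 genotypes and share their depth with every gene, so these values describe profiles and carry no test.

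No CIN-type TCP gene carried a peak of increased H2Aub1. Peaks of *ubp12/13* rosette leaves, which the authors merged over 2 replicates into 1285 regions, overlapped the gene body or the 2 kb before it in 0 of the 8 genes, against 1651 of 27444 protein-coding genes (6.02%). Counting only peaks on the 1 kb that follows the gene start, as the study did, gave 0 of 8 genes, against 3.58% of all. The nearest peak was 18185 bp from *TCP2*, 28478 bp from *TCP4*, 54984 bp from *TCP10*, 33897 bp from *TCP5* and 146965 bp from *TCP17*. Among the reported targets, *LOX2* was 132295 bp from a peak, while peaks overlapped *CUC1* and *MIR164A*, which had too few counts to be tested. The peaks came from older rosette leaves and the counts from seedlings, and the heights of the peaks are not in the file.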

How the data were processed

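RNA-seq counts of 12 libraries were analysed, 3 per genotype, as grouped by the labels. The counts were deposited without normalization. Per the labels and the study's methods, the authors trimmed 50-bp single-end reads with cutadapt 1.18, mapped them with TopHat2 to TAIR10, kept nuclear reads of high mapping quality and made a count for each gene in HTSeq 0.11.1. The deposited tables nevertheless hold counts on organelle genes, 0.268% to 6.15% of a library. The TruSeq v2 kit does not mark strand. Deposited peak positions (other columns of chromosome, start and end) were merged by the authors, and their score column holds 1 throughout.

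Mutants were compared in R 4.3.3 with edgeR 4.0.16 (TMM, quasi-likelihood test, Benjamini-Hochberg adjustment over all genes tested) on the 6 libraries of a pair. The interaction used all 12. A gene needed CPM over 1 in 2 or more libraries, chloroplast and mitochondrial genes being left out. DESeq2 1.42.0 was an alternative. The edgeR fits of *ubp12/13* against wt and of the interaction were tested on simulated data. An adjusted p under 0.05 made a call, and the study's rule with an absolute log2FC of at least 1 was counted too. Log2 CPM used a prior count of 2. CPM per kb used the exon length of the RefSeq TAIR10.1 models, which are newer than those counted. The biological coefficient of variation was 12% to 12.9%.

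The members and gene lists were chosen with earlier results of these data known, so the lists are not independent evidence. Named were all members, *UBP12*, *UBP13* and, from each list, the genes that met the study's rule in *ubp12/13* against wt or else the one of lowest adjusted p, and the 5 genes most alike to the leading member. Same-numbered replicates were not treated as pairs. 1 root marker of the lists is not reported here.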

Additional observations from a re-analysis of the deposited data

Results flagged for a closer look

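The effect of the *ubp12* mutation differed between plants with and without the *ubp13* mutation at 5 CIN-type TCP genes (interaction over the 12 libraries, edgeR). The interaction log2FC was -0.94 for *TCP4*, -0.71 for *TCP2* and -0.43 for *TCP10*, which have miR319 sites, against 7.57% of the 18212 genes tested. It was 1.32 for *TCP17* and 0.82 for *TCP5*, which have none, against 6.83%. The call of *TCP10* was lost in 11 of 19 alternative fits (edgeR adjusted p up to 0.232). That of *TCP17* was lost in 3 of 19 (edgeR adjusted p up to 0.06). At *TCP2* the single-mutant differences from wt were above 0 (0.35 in *ubp12* and 0.14 in *ubp13*) and that of *ubp12/13* was below 0 (-0.22), none of them past the threshold. At *TCP17* they were -0.37 in *ubp12* and -0.55 in *ubp13*, against 0.41 in *ubp12/13*, again none past the threshold.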

How the results depend on the processing

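The numbers of CIN-type TCP genes called stayed within 1.5 times the reported ones under RLE size factors, DESeq2, both other filters, the common fit of 12 libraries, kept organelle genes and the replicate block. Library totals moved the number higher in *ubp12/13* than in wt to 2 and the number lower than in *ubp12* to 2. With 1 library left out, the number higher against *ubp12* ranged from 1 to 2 and the number lower from 2 to 4, and the interaction passed for 3 to 5 genes. With the replicate block, all counts of members were as reported (1 higher and 2 lower in *ubp12/13* against wt, 5 with an interaction). No member carried a peak of increased H2Aub1 (0 of 8) under any of the overlap rules tried, against 3.58% to 6.02% of all protein-coding genes. Over all genes, calls in *ubp12* against wt were 192 higher and 125 lower with edgeR, 288 and 165 with DESeq2 and 375 and 240 without a filter, and in *ubp13* against wt 4 and 1, 14 and 7, and 5 and 5. In their deviations from group means, same-numbered libraries correlated between -0.165 and 0.108 where one was wt, and between 0.0147 and 0.292 where *ubp12/13* met a single mutant, with 4 of these 6 pairs over 0.1. In none of the pairwise comparisons made were all 3 pairs over 0.1, so the numbers were not taken as pairs. As a hint from the data, 5 of 6 libraries correlated best with their own number both between *ubp12/13* and *ubp12* and between *ubp12/13* and *ubp13*, against 0 of 6 between *ubp12/13* and wt. All 3 pairs of *ubp13* with *ubp12* lay between 0.102 and 0.215. These genotypes were not compared as a pair, but both enter the interaction, which was fitted without pairs and, as an alternative, with the replicate block. With the replicate block, calls over all genes were 2384 higher and 2206 lower in *ubp12/13* against wt, 2899 and 2831 against *ubp12* and 3277 and 3098 against *ubp13*.

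Directions turned only at differences that passed no threshold. *TCP10* in *ubp13* against wt had a log2FC of 0.00968 without a filter, 0.000655 in the common fit and 0.000759 with organelle genes kept. With 1 library left out, log2FC in *ubp13* against wt ranged from -0.0257 to 0.0152 for *TCP10*, -0.14 to 0.0336 for *TCP24* and -0.222 to 0.0302 for *TCP5*, and that of *TCP3* ranged from -0.152 to 0.659 in *ubp12/13* against *ubp12*, -0.331 to 0.18 against *ubp13* and -0.662 to 0.144 in the interaction. Library totals turned *TCP3* (0.192) and *TCP24* (0.0134) in *ubp12/13* against *ubp13*. The cause was not tested. *TCP3* had 4 to 24 counts in a library, and no difference of it was detectable at this depth.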
